A study of Mus musculus with 10 samples.

Results

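The genes described here are 10 genes of stratified epithelia: *Trp63*, the uroplakin genes *Upk1a*, *Upk1b*, *Upk2* and *Upk3a*, the keratin genes *Krt5* and *Krt14*, and the cornified envelope genes *Sprr1a*, *Sprr2f* and *Hrnr*. They were taken by gene name from a table of 39273 genes, and all 10 were among the 24410 genes with enough counts to be tested. They were chosen by their measured levels in these same libraries, so their levels and fold differences are given as a description and carry no test.

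RNA-seq was done on mouse ureteric bud (UB) organoids cultured to days 5, 10 and 20, on collecting duct (CD) organoids and on adult mouse CD cells (adult mCD), giving 5 groups of 2 libraries. The UB organoids came from T-shaped ureteric buds of E11.5 embryos carrying 1 copy of the *Wnt11*-RFP reporter on a C57BL/6 x Swiss Webster background, and were grown in a medium (mUBCM) with the growth factors FGF9 and GDNF, R-Spondin1, the small molecules CHIR99021 and TTNPB, and the inhibitors A83-01, LDN193189, SB202190 and JAKI. The CD organoids were derived from such UB organoids in a differentiation medium (CDDM) with FGF9, Y27632, DAPT (a Notch pathway inhibitor), PD0325901 (a MEK inhibitor), aldosterone and vasopressin. In the paper's protocol this differentiation starts from UB organoids at day 10. UB organoids of day 20 are thus a separate, longer culture and not a stage before CD organoids. The adult mCD libraries are described in the design text as cells sorted from adult kidneys by the *Hoxb7*-Venus reporter, whereas their sample labels call them organoids and repeat the embryonic age and the *Wnt11*-RFP genotype. The *Hoxb7* reporter marks derivatives of the Wolffian duct, which include the epithelium of the ureter and renal pelvis as well as the collecting duct. Nothing in the labels says whether the libraries of a group came from separate cultures or animals, so the spread between them may be technical.

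Urothelium, the stratified lining of the renal pelvis, ureter and bladder, descends at its ureteric end from the same ureteric bud as the collecting duct. TRP63, a p53 family transcription factor, marks the basal cells of stratified epithelia and is required for them to form, and KRT5 pairs with KRT14 in the filaments of such basal cells. Uroplakins cover the apical face of the superficial urothelial cells: UPK1A pairs with UPK2 and UPK1B with UPK3A before the plaques are assembled. Small proline-rich proteins (SPRR) and hornerin are crosslinked into the cornified envelope of squamous cells, and their genes lie together in a chromosomal cluster called the epidermal differentiation complex.

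The members fell into 4 patterns over the groups. *Trp63* was highest in UB organoids of day 20 and next highest in CD organoids. The 4 uroplakin genes, *Krt5* and *Krt14* were highest in adult mCD, and among them *Upk2*, *Krt5* and *Krt14* had at most 2 counts in any organoid library. *Sprr2f* and *Hrnr* were highest in CD organoids. *Sprr1a* was about equally abundant in CD organoids and adult mCD, and it had 282 and 314 counts at day 10 but at most 9 counts in a library of day 5 or 20.

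**Figure D1:**
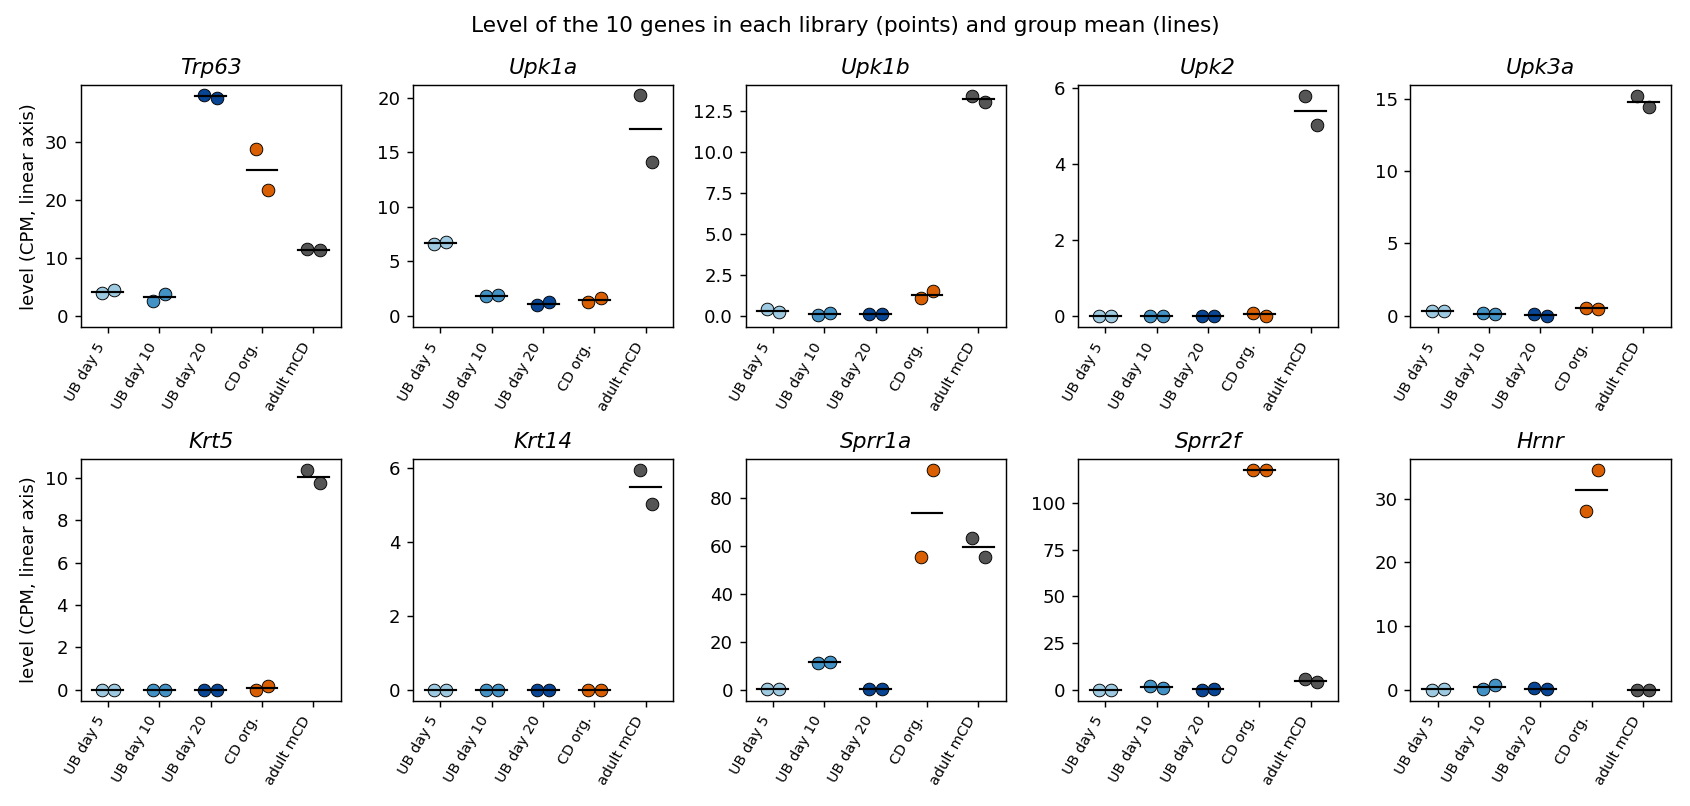
Level of each of the 10 genes in CPM (counts per 1000000 counts of the library after scaling, linear axes that differ between panels) in the 2 libraries of each group (points), with the group mean as a line. *Trp63* is highest at day 20 (38 and 37.6 CPM), the uroplakin and keratin panels are highest in adult mCD, and *Sprr2f* and *Hrnr* are highest in CD organoids.

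The libraries held between 11913613 and 24536676 counts, and the 4 libraries of days 5 and 10 were the deepest. The detection limit was set at 3 counts in a library, which came to between 0.109 and 0.241 CPM and covers counting error only. The groups also split in another way: 4 Y-linked genes summed to between 0.0408 and 0.875 CPM in the libraries of days 5 and 10 and to between 230 and 295 CPM in the other 6 libraries. Any difference between days 5 or 10 and the other groups thus cannot be told apart from a difference between source embryos or sequencing depth. In bulk RNA, fewer cells of a type and less RNA per cell cannot be told apart either.

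The labelled identities were checked on marker lists. Markers of principal and intercalated cells, the main cell types of the collecting duct, summed to between 1890 and 2080 CPM in CD organoids and between 9440 and 9720 CPM in adult mCD, against at most 206 CPM in UB organoids. Adult mCD also held proximal tubule markers, which summed to between 5040 and 5910 CPM with none of the 8 genes at or under 3 counts in both libraries, and endothelial markers at between 499 and 506 CPM. In CD organoids the proximal tubule list summed to at most 13.4 CPM and the endothelial list to at most 1.93 CPM, while the stromal list summed to between 127 and 258 CPM. Of the 4 leukocyte markers only *Ptprc* was above 3 counts in CD organoids, where the list summed to between 37.5 and 44.1 CPM. The mesothelial list, which shares *Upk3b* with the urothelial list, summed to between 19.8 and 20.7 CPM in CD organoids and between 54.6 and 65.2 CPM in adult mCD.

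**Figure D2:**
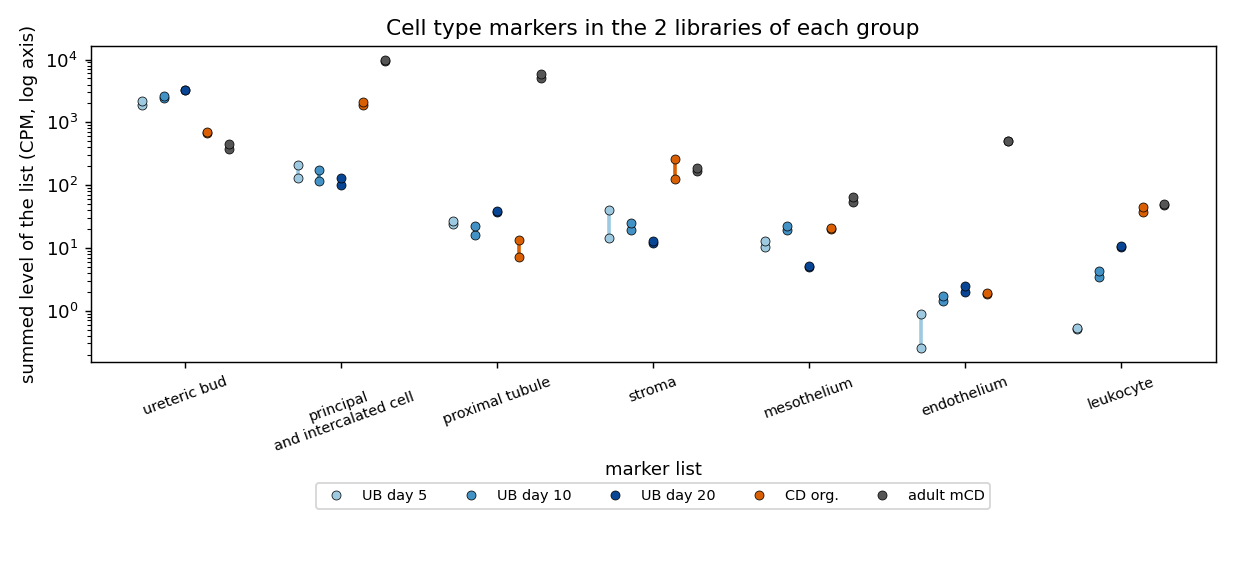
Summed level of 7 marker lists (CPM, log axis) in the 2 libraries of each group, joined by a line. Proximal tubule and endothelial markers are high in adult mCD (5040 to 5910 CPM and 499 to 506 CPM), and ureteric bud markers are lowest in CD organoids and adult mCD.

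*Trp63* lies on chromosome 16 from 25683763 to 25892102 on the plus strand (GRCm38, GENCODE M21, as for all positions here). It had 3.84 and 4.37 CPM at day 5, 2.62 and 3.83 CPM at day 10, 38 and 37.6 CPM at day 20, 28.7 and 21.7 CPM in CD organoids, and 11.5 and 11.3 CPM in adult mCD. No 2 of the 5 groups overlapped, although days 5 and 10 nearly met at 3.84 and 3.83 CPM. The mean at day 20 was 9.2-fold that at day 5 and 11.7-fold that at day 10, and the mean in CD organoids was 7.81-fold that at day 10, 0.667 times that at day 20 and 2.21-fold that in adult mCD. Days 5 and 10 differed by less, with a ratio of 0.785. The 3 groups with the higher *Trp63* levels are those with Y-linked counts and lower depth, and the part of that split in the *Trp63* levels was not tested.

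The level of *Trp63* was not accompanied by the basal keratin genes in the organoids. *Krt14* (chromosome 11, 100203162 to 100207548, minus strand) had no count in any of the 6 UB organoid libraries or the 2 CD organoid libraries. It had 79 and 64 counts, or 5.95 and 5.03 CPM, in adult mCD, which is at least 24.2-fold higher than in CD organoids when these are set at 3 counts per library. *Krt5* (chromosome 15, 101707070 to 101712898, minus strand) had no count in the 6 UB organoid libraries, 0 and 2 counts in CD organoids, and 138 and 124 counts (10.4 and 9.75 CPM) in adult mCD. The ratio of adult mCD to CD organoids was 126 for *Krt5*, with a 95% counting interval of 36.6 to 1110. At these depths a level of up to the 3-count limit in a UB organoid library would not have been detected for either gene.

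Set against each other per kilobase of exon, the order of the 3 basal genes reversed between groups. *Krt5* and *Krt14* stood at 4.59 and 3.12 CPM per kb in adult mCD, where *Trp63* stood at 1.36, so that *Krt5* was 3.38 times and *Krt14* 2.3 times as abundant as *Trp63*. In CD organoids *Trp63* stood at 3 CPM per kb and *Krt5* at 0.0365, a ratio of 0.0122, and at day 20 *Trp63* stood at 4.5 CPM per kb with both keratin genes at 0. The deposited RPKM values put *Krt5* at 11.5 times *Trp63* in adult mCD instead, and *Krt14* at 4.87 times, since they divide *Trp63* by a length of 28623 bases, which is 3.41 times the 8391 bases its exons cover.

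The other genes of the basal keratinocyte and p63 target list were called in both directions. Of its 16 genes, 15 are in the table and 13 were tested. At day 20 against day 5, 2 were called higher and 3 lower (a call being an adjusted p of at most 0.01 in edgeR's quasi-likelihood test and a change of more than 4-fold), with a median log2 fold change of -0.34 against -0.05 over all genes. Of all genes tested in that comparison, 4.68% were called higher and 3.93% lower. *Perp*, a p63 target of desmosomal junctions, was higher by a log2 fold change of 2.23 (approximate SE 0.253, adjusted p = 7.51e-06), from 13.8 to 64.9 CPM. *Krt17* was called higher at a low level, from 0.207 to 1.5 CPM. *Tfap2c*, a transcription factor of early surface epithelium, fell by 3.66 on the log2 scale (adjusted p = 6.01e-07) from 32.1 to 2.49 CPM, and *Jag2*, a Notch ligand, fell by 2.71 (adjusted p = 1.34e-07) from 37.5 to 5.7 CPM. *Trim29* was the third gene called lower and had no count at day 20.

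In CD organoids most of this list was not called. Against day 10, where 4.96% of all genes were called higher and 5.71% lower, *Krt15* and *Trim29* were called higher, both under 1 CPM in CD organoids, and *Tfap2c* was called lower, by a log2 fold change of -4.13 (adjusted p = 1.89e-06), to 0.57 CPM. Against day 20, with 4.74% of all genes called higher and 4.73% lower, *Krt15* and *Trim29* were called higher and *Krt17* and *Tfap2c* lower. Against adult mCD, with 4.5% called higher and 9.84% lower, no gene of the list was called higher and 3 were called lower. Of all calls against adult mCD 31.4% were higher, a share of 44.4% when libraries were scaled by their totals alone, which moved the median of all genes from 0 to 0.34 on the log2 scale. *Sfn* (stratifin) stood at 3.09 ± 0.0603 CPM against 61.1 ± 4.83 CPM in adult mCD (SD, n = 2 each), with a log2 fold change of -4.28 (adjusted p = 4.52e-08). *Krt15*, a basal keratin gene, was at 0.851 and 14.4 CPM, a log2 fold change of -4.03 (adjusted p = 1.43e-06), and *Trim29* was at 0.628 and 3.75 CPM.

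Several genes that anchor basal cells were called higher in CD organoids. Of 10 genes on the hemidesmosome and anchoring list, all tested, 4 were called higher than at day 10 and none lower, beside 4.96% and 5.71% of all genes. They were *Lamb3* and *Lama3*, chains of laminin-332, *Itgb4*, the integrin of hemidesmosomes, and *Col17a1*. *Col17a1* was at a low level, with 0.753 CPM in CD organoids and 0.0761 CPM at day 10. *Lamb3* stood at 52.9 ± 2.6 CPM in CD organoids and 1.36 ± 0.752 CPM at day 10 (SD, n = 2 each), a log2 fold change of 5.21 (SE 0.266, adjusted p = 2.05e-09). *Lama3* was at 27.1 and 0.998 CPM (log2 fold change 4.68, adjusted p = 1.09e-09), and *Itgb4* at 236 and 18.9 CPM (3.64, adjusted p = 1.29e-11). *Itgb4* was also called higher in UB organoids of day 20 than of day 10, by 2.57 (adjusted p = 1.77e-09), at 113 CPM. Against day 20, *Lamb3* and *Lama3* were called higher in CD organoids, and against adult mCD only *Lamb3* was, by 2.71 (adjusted p = 3.08e-07). Over all genes tested, 4.74% were called higher against day 20 and 4.5% against adult mCD. In adult mCD, *Lamb3*, *Lama3*, *Itgb4* and *Col17a1* stood at 8.01, 37.6, 129 and 0.729 CPM.

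The desmosome list, with 10 of 12 genes tested, had 2 higher calls and 1 lower call for day 20 against day 5, beside 4.68% and 3.93% of all genes, and at most 1 call in each of the other comparisons. Of all genes, 2.34% were called higher at day 10 than at day 5. In CD organoids 5.71% were called lower than at day 10, 4.74% higher than at day 20 and 9.84% lower than in adult mCD. *Dsp* (desmoplakin) was the abundant one: it fell by 2.16 on the log2 scale (adjusted p = 4.52e-09) from 444 CPM at day 5 to 99.1 CPM at day 20, and was higher in CD organoids than at day 20 by 2.38 (adjusted p = 8.14e-10), at 517 CPM. The epidermal cadherin gene *Dsc3* was called higher at day 10 than at day 5, at 1.65 and 0.0213 CPM, and lower in CD organoids than at day 10. *Dsc1* was called higher at day 20 than at day 5, where it had no count, and *Pkp1* was called lower than in adult mCD, at 0.0356 and 1.5 CPM.

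The uroplakin genes were highest in adult mCD, the libraries in which proximal tubule and endothelial markers were high as well. *Upk1a* (chromosome 7, 30603092 to 30612847, minus strand) was the uroplakin gene with at least 16 counts in every library. It had 6.62 and 6.78 CPM at day 5, 1.78 and 1.86 CPM at day 10, 0.971 and 1.26 CPM at day 20, 1.28 and 1.6 CPM in CD organoids and 20.2 and 14.1 CPM in adult mCD. The UB organoid groups did not overlap and were ordered by day, with the mean at day 5 being 3.68 times that at day 10 and 6.01 times that at day 20. Adult mCD was 11.9 times CD organoids. CD organoids lay between days 20 and 10, and their ratio to day 10, 0.792, had a 95% counting interval of 0.525 to 1.16.

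Its partner *Upk2* (chromosome 9, 44452715 to 44454976, minus strand) had no count in any UB organoid library, 1 and 0 counts in CD organoids, and 77 and 64 counts (5.8 and 5.03 CPM) in adult mCD. The ratio of adult mCD to CD organoids was 152, with a 95% counting interval of 25.4 to 5720. Per kilobase of exon, *Upk2* was 0.414 times as abundant as *Upk1a* in adult mCD and 0.0324 times in CD organoids.

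*Upk1b* (chromosome 16, 38773184 to 38800328, minus strand) and *Upk3a* (chromosome 15, 85017141 to 85022547, plus strand), which encode the other pair, both had a low level in CD organoids above those of UB organoids. *Upk1b* had 15 and 19 counts in CD organoids (1.07 and 1.52 CPM) against 1 to 9 counts in the 6 UB organoid libraries (at most 0.384 CPM), and 178 and 165 counts (13.4 and 13 CPM) in adult mCD. *Upk3a* had 8 and 6 counts in CD organoids (0.57 and 0.481 CPM), at most 8 counts in a UB organoid library (at most 0.327 CPM), and 202 and 183 counts (15.2 and 14.4 CPM) in adult mCD. For *Upk3a*, CD organoids and day 5 were close, with means of 0.525 and 0.313 CPM from 14 and 15 counts. That difference rests on few counts and has no interval here. In CD organoids the 2 libraries of each gene did not overlap with those of any other group. Adult mCD stood at 10.2 times CD organoids for *Upk1b* and at 28.2 times for *Upk3a*. The ratio of CD organoids to day 10 was 14 for *Upk1b*, with a 95% counting interval of 5.25 to 44.2, and 3.42 for *Upk3a*, with 1.36 to 9.56. The log2 fold change of *Upk1b* there, 3.17, became 2.09 with a prior count of 5 and 3.8 without library 2 of day 10.

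The wider urothelial differentiation list split between the 2 collecting duct groups. It has 18 genes, of which 17 were tested. Against adult mCD, 4 were called higher in CD organoids and 5 lower, beside 4.5% and 9.84% of all genes. Among the lower were *Psca*, a surface antigen of urothelium, and *Snx31*, a sorting nexin that binds uroplakins. *Psca* had no count in CD organoids against 21.3 ± 1.82 CPM in adult mCD (SD, n = 2), which is at least 93.9-fold higher (adjusted p = 1.72e-08), and *Snx31* stood at 0.0356 and 8.44 CPM (adjusted p = 1.8e-07). *Upk3b*, at 2.14 and 12.2 CPM, had a log2 fold change of -2.48 (adjusted p = 7.43e-06). *Grhl3* and *Mal*, the latter also made by kidney tubule cells, were the other genes called lower, *Mal* by -2.23 (adjusted p = 1.11e-10) but by less than 4-fold when libraries were scaled by their totals alone.

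The genes called higher in CD organoids than in adult mCD were *Upk3bl*, *Shh*, *Krt19* and *Foxa1*. *Upk3bl*, which encodes a uroplakin 3-like protein, stood at 21 ± 0.963 CPM in CD organoids and 0.192 ± 0.0487 CPM in adult mCD (SD, n = 2 each), with a log2 fold change of 6.41 (adjusted p = 3.79e-08). *Shh*, a secreted signal of the ureter epithelium, stood at 23 and 1.77 CPM (3.66, adjusted p = 5.16e-08), and *Krt19* at 340 and 45.1 CPM (2.91, adjusted p = 3.5e-06). *Foxa1*, a transcription factor, was higher by 2.11 (adjusted p = 1.38e-06), at 44.8 and 10.3 CPM.

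Against UB organoids, the calls in this list all went 1 way. In CD organoids 7 genes were called higher and none lower than at day 10, beside 4.96% and 5.71% of all genes. Against day 20, 8 were called higher and none lower, beside 4.74% and 4.73% of all genes. The median log2 fold changes of the list were 1.22 and 1.9, beside -0.15 and 0 over all genes, and both comparisons share the CD organoid libraries. Against day 10 they were *Upk3b*, *Upk3bl*, *Krt7*, *Krt19*, *Mal*, *Foxa1* and *Pparg*. Against day 20 they were *Upk3b*, *Upk3bl*, *Krt7*, *Krt19*, *Foxa1*, *Pparg*, *Elf3* and *Shh*. The other 10 and 9 tested genes were not called. Among them, means in CD organoids, at day 10 and at day 20 were 0.223, 0.387 and 0.284 CPM for *Krt20*. They were 0.0356, 0.136 and 0.0937 CPM for *Snx31*, and 0.201, 0.422 and 0.596 CPM for *Grhl3*. *Krt13*, not tested, had no count in any organoid library. *Krt7* stood at 299 ± 0.0565 CPM in CD organoids and 27.8 ± 7.98 CPM at day 10 (SD, n = 2 each), with a log2 fold change of 3.43 (adjusted p = 2.88e-09). *Foxa1* was higher than at day 10 by 4.59 (adjusted p = 2.45e-09), and *Krt19* was higher than at day 20 by 7.49 (adjusted p = 1.41e-08). *Krt7* and *Krt19* are also keratins of collecting duct cells.

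Over the time in culture, 6 of the 17 genes were called lower and 3 higher at day 20 than at day 5. Over all genes tested, the shares were 3.93% lower and 4.68% higher. *Krt19* fell by 6.05 on the log2 scale (adjusted p = 1.89e-07) from 126 to 1.88 CPM, and *Elf3*, an epithelial Ets factor, fell by 2.98 (adjusted p = 1.77e-07) from 205 to 26 CPM. *Krt7* fell by 2.08 (adjusted p = 3.57e-06), and was under 4-fold when scaled by library totals alone (-1.97) or without library 1 of day 20 (-1.72) or library 2 of day 5 (-1.94). *Upk3bl*, *Pparg* and *Grhl3* were also called lower. *Ehf*, a paralogous Ets factor, was higher by 4.17 (adjusted p = 6.58e-09), from 14 to 254 CPM, and *Rab27b*, a small GTPase of uroplakin vesicle traffic, by 2.59 (adjusted p = 1.56e-06), from 1.7 to 10.5 CPM. *Foxa1* was the third gene called higher, at 4.5 CPM at day 20. At day 10 against day 5, 3 genes were called higher and 1 lower, beside 2.34% and 1.07% of all genes. *Ehf* (4.08, adjusted p = 4.52e-08) and *Shh* (3.35, adjusted p = 8.07e-07) were among the higher. At day 20 against day 10, 5 were called lower and none higher, beside 1.73% and 1.66% of all genes. The lower ones included *Krt19* (-4.92, adjusted p = 5.28e-06), *Shh* (-4.23, adjusted p = 5.27e-07) and *Elf3* (-2.26, adjusted p = 6.6e-06).

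**Figure D3:**
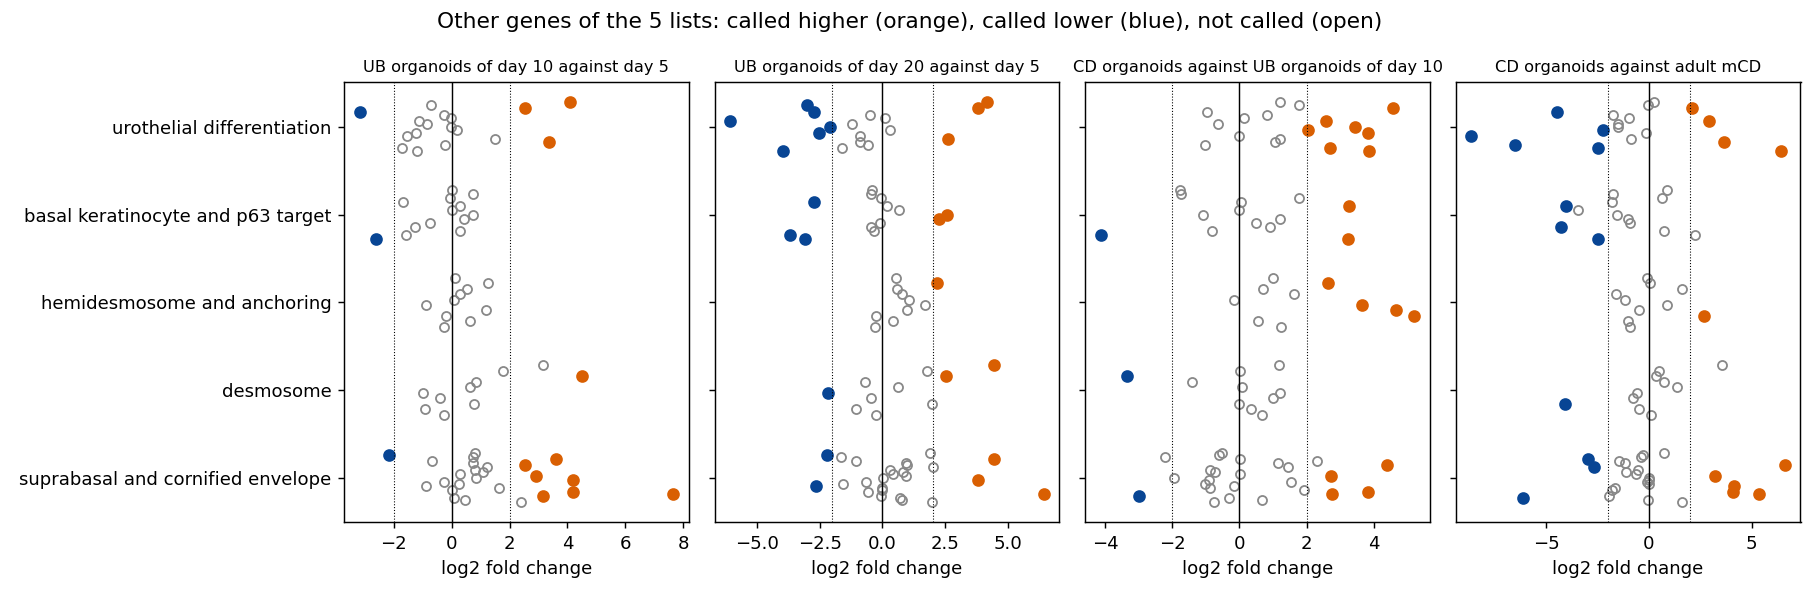
Log2 fold change of each tested gene of the 5 lists (points, 1 row of points per list) in 4 comparisons, with calls in orange (higher) and blue (lower), open circles for genes not called and dotted lines at 4-fold. In CD organoids against day 10, the urothelial list has 7 genes called higher and the hemidesmosome list 4, with none called lower in either.

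The cornified envelope members are shown with the 250 bases before their RefSeq start sites, since *Sprr1a*, *Sprr2f* and *Hrnr* lie in 1 cluster and all 3 stood higher in CD organoids than at any day of UB culture. RefSeq promoters on GRCm38.p6 were matched for 7 of the 10 members. Capitals mark matches, on either strand, to the AP-1 letters TGANTCA and to the TATA box letters TATAAA, and no marked matches overlap. The 3 windows are chr3:92485882-92486131 (minus strand) for *Sprr1a*, chr3:92364937-92365186 (plus strand) for *Sprr2f* and chr3:93319499-93319748 (plus strand) for *Hrnr*, each printed 5′ to 3′.
Sprr1a: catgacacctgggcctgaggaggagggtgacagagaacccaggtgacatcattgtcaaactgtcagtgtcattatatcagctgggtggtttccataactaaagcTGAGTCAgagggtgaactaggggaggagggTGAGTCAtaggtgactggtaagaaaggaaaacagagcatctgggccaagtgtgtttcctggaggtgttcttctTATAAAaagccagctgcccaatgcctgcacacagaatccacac
Sprr2f: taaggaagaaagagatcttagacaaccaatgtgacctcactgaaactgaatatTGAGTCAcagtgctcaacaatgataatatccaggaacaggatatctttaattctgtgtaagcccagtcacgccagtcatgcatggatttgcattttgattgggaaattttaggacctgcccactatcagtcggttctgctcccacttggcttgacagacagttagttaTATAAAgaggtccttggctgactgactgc
Hrnr: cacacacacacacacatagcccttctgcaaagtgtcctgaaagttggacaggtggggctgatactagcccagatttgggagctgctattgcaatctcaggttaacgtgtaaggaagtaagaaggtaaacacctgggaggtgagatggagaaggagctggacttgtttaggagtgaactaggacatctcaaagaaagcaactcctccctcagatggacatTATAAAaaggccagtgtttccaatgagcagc

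The AP-1 letters occurred at 2 places in the *Sprr1a* window, starting at bases -146 and -116 from the start site, at 1 place in that of *Sprr2f* (base -197), and not in that of *Hrnr*. Of 32851 mouse promoter windows of the same length, 6.75% held a match. All 3 windows held the TATA letters, starting at base -43 in *Sprr1a*, -29 in *Sprr2f* and -31 in *Hrnr*, as did 12.4% of all windows. The Ets letters GGAAGT occurred in the *Hrnr* window alone of the 3 (base -139), and in 19.7% of all windows. The windows of *Upk1a*, *Upk3a*, *Krt5* and *Krt14* held none of the 3 sets of letters. That of *Krt14* (chr11:100206031-100206280, minus strand) lies inside the gene as placed above, which begins at 100207548 on that strand. The *Krt14* window thus does not cover the bases before that start. These are matches of letters and were not tested for binding.

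*Sprr1a* (chromosome 3, 92483952 to 92485895, minus strand) had 0.128 and 0.367 CPM at day 5, 11.2 and 11.5 CPM at day 10, and 0.121 and 0.264 CPM at day 20. It had 55.3 and 91.6 CPM in CD organoids and 63.3 and 55.3 CPM in adult mCD. Day 10 thus stood apart from the other days of UB culture, at 45.7 times day 5 (95% counting interval 25.7 to 88) and 58.7 times day 20 (27.2 to 163), while days 5 and 20 overlapped. These ratios rest on 12 and 6 counts at days 5 and 20, and the log2 fold change of day 10 against day 5, 5.22, became 5.95 without library 2 of day 5 and 4.48 with a prior count of 5. That of day 20 against day 10, -5.54, became -4.65 with a prior count of 5. CD organoids were 6.49 times day 10 and 381 times day 20, the latter resting on 2 and 4 counts at day 20 (95% counting interval 175 to 1040), and the log2 fold change of 8.23 became 7.32 with a prior count of 5. CD organoids and adult mCD overlapped, with a ratio of 1.24, and the log2 fold change between them, 0.31, turned to -0.11 when 1 library was left out.

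*Sprr2f* (chromosome 3, 92365187 to 92366442, plus strand) had no count at day 5, 1.67 and 0.62 CPM (42 and 17 counts) at day 10, and 0 and 1 count at day 20. Both CD organoid libraries stood at 118 CPM, and adult mCD at 5.43 and 4.01 CPM. CD organoids were 103 times day 10 and 25.1 times adult mCD. The log2 fold change against day 10, 6.65, became 7.46 without library 1 of day 10 and 6.12 without library 2. Day 10 was at least 9.12-fold higher than day 5. Per kilobase of exon, *Sprr2f* was 2.13 times as abundant as *Sprr1a* in CD organoids but 0.105 times in adult mCD and 0.134 times at day 10. The *Sprr2* genes are close copies of each other, and the paper names an E/M model for the counting. Such a model divides a read between the genes it matches, so values of single *Sprr2* genes are uncertain.

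*Hrnr* (chromosome 3, 93319749 to 93333570, plus strand), a repeat-rich gene, was detected almost only in CD organoids. It had 394 and 431 counts (28.1 and 34.6 CPM) in CD organoids and no count in adult mCD, at least a 136-fold difference. In UB organoids it had at most 4 counts in each library but one: library 2 of day 10 had 19 counts (0.693 CPM) while library 1 had 1. CD organoids were 85.5 times day 10 (95% counting interval 52.7 to 135) and 203 times day 20 (83.9 to 607). The log2 fold change against day 10, 6.18, lay between 5.4 and 8.35 with single libraries left out, the higher value being without library 2 of day 10. Against day 20, which rests on 5 counts, the log2 fold change of 7.21 became 8.03 without library 1 of day 20 and 6.2 with a prior count of 5.

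The rest of the suprabasal and cornified envelope list was then described. The list was chosen with earlier results of these data known, so its calls are no independent check of the members. The comparisons of day 10 with day 5 and of day 20 with day 10 were added after the levels were seen. Of its 47 genes, 43 are in the table and 25 were tested, and the other 18 had fewer than 10 counts over all 10 libraries. At day 10 against day 5, 7 of the 25 were called higher and 1 lower, where 2.34% of all genes were called higher and 1.07% lower. *Tchh* (trichohyalin, a hair follicle envelope protein) was at 0.581 ± 0.218 CPM at day 5 and 128 ± 68.6 CPM at day 10 (SD, n = 2 each), a log2 fold change of 7.65 (SE 0.445, adjusted p = 1e-07). *Sprr2g*, the neighbour of *Sprr2f*, was at 0.646 and 12.7 CPM (4.18, adjusted p = 0.000112), a call lost with limma-voom. The others, *Krt4*, *Lor*, *Flg*, *Tchhl1* and *Calml3*, were at 2.09 CPM or less at day 10, and *Aloxe3* was the gene called lower.

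By day 20 the *Sprr2* genes were again near 0 while *Tchh* was not. *Sprr2g* was lower at day 20 than at day 10 by a log2 fold change of -4.77 (adjusted p = 2.32e-04), at 0.427 CPM, a call lost with limma-voom and when only the 4 libraries compared were fitted. It and *Tchhl1* were the 2 genes called lower, and none was called higher, in a comparison where 1.66% of all genes were called higher and 1.73% lower. *Tchh* stood at 54.3 ± 13.3 CPM at day 20 (SD, n = 2), higher than at day 5 by 6.41 (adjusted p = 1.26e-07). *Sbsn* (suprabasin) fell by 2.66 on the log2 scale between days 5 and 20 (adjusted p = 1.17e-04), from 13.3 to 2.03 CPM.

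In CD organoids, *Tchh*, *Sprr2g*, *Flg* and *Krt4* were called higher than at day 10 among the 25 genes, and *Tchhl1* lower. Over all genes tested, the shares were 4.96% higher and 5.71% lower. Against day 20, *Tchh*, *Sprr2g*, *Flg* and *Krt4* were called higher and none lower, beside 4.74% and 4.73% of all genes. *Tchh* reached 865 ± 38.9 CPM (SD, n = 2), higher than at day 10 by 2.76 (adjusted p = 1.27e-06) and than in adult mCD by 5.36 (adjusted p = 8.54e-09). *Sprr2g* reached 182 ± 6.05 CPM (SD, n = 2), higher than at day 10 by 3.84 (adjusted p = 9.52e-07). *Flg* (filaggrin) was at 9.08 CPM in CD organoids and at most 0.377 CPM in the mean of any other group. The median log2 fold change of the list was -0.16 against day 10, beside -0.15 over all genes.

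Against adult mCD the cornified envelope genes went both ways. In CD organoids 5 were called higher and 3 lower, beside 4.5% and 9.84% of all genes. *Tchh*, *Sprr2g*, *Flg*, *Krt4* and *Sbsn* were the higher ones. *Tgm1*, the transglutaminase that crosslinks the envelope, was at 0.298 ± 0.0816 CPM against 25 ± 3.41 CPM in adult mCD (SD, n = 2 each), with a log2 fold change of -6.14 (adjusted p = 2.38e-08). *Ivl* (involucrin) was at 0.833 and 5.48 CPM and *Calml3* at 0.873 and 7.16 CPM, both called lower. *Krt10*, the suprabasal keratin gene of epidermis, lay between 4.46 and 8.57 CPM in the group means and was called in none of the comparisons.

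The epidermal differentiation complex, taken as chromosome 3 from 90692632 to 93526287, holds 68 genes of the table, 41 of them protein coding. Of these, 21 were tested and 12 had no count in any library. Leaving out *Sprr1a*, *Sprr2f* and *Hrnr*, 7 of the 18 tested were called higher and none lower at day 10 against day 5, beside 2.34% and 1.07% of all genes. Of these 7, *Lor*, *Flg*, *Tchh*, *Tchhl1* and *Sprr2g* were already counted in the suprabasal and cornified envelope list, and the others were *Gm35439* and *S100a11*. The calls of the complex are thus largely those of that list. In CD organoids against day 10, 6 were called higher and 1 lower, beside 4.96% and 5.71% of all genes. *Tchh*, *Sprr2g* and *Flg* among the higher, and *Tchhl1*, the lower one, were counted in the list as well. *Gm37913* and *Gm5278*, also called higher, had 11 and 23 counts in CD organoids and at most 3 in any other group. They thus passed the count filter mainly through CD organoids. Only 4 were called higher with at least 10 counts required in 2 libraries, a prior count of 5 or DESeq2. The 7 calls of the first comparison became 4 without library 2 of day 5, and the 7 of the second became 4 without library 1 of CD organoids. Against adult mCD, 4 were called higher in CD organoids and 2, *Ivl* and *Smcp*, lower, beside 4.5% and 9.84% of all genes. Of these, *Tchh*, *Sprr2g*, *Flg* and *Ivl* were counted in the list as well. *S100a11*, a calcium-binding gene at the end of the complex that many epithelia express, was called higher at day 10 than at day 5 and stood at 348 CPM in CD organoids and 175 CPM in adult mCD. Most genes of the complex that were detected at all stayed under a few CPM, so the level in CD organoids was carried by *Tchh*, *S100a11*, *Sprr2g*, *Sprr2f*, *Sprr1a* and *Hrnr*, with *Flg* and the noncoding *Gm35439* (4.02 CPM) below them.

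**Figure D4:**
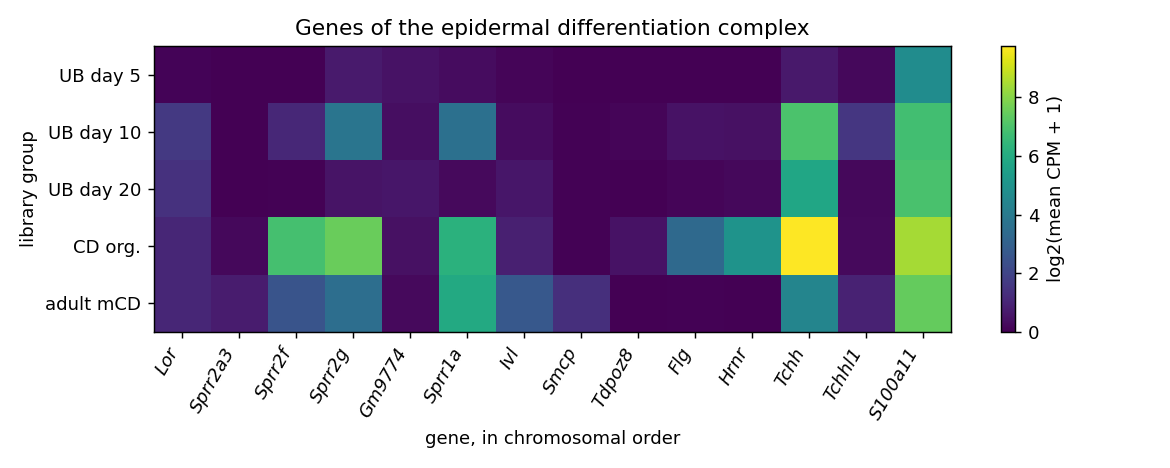
Mean level, as log2(CPM + 1), of the 14 tested coding genes of the epidermal differentiation complex (the polymorphic pseudogene *Sprr2g* included) in each group, in chromosomal order. In CD organoids *Tchh* is the brightest at a mean of 865 CPM and *Sprr2f* is at 118 CPM, while *Ivl* and *Smcp* are brightest in adult mCD.

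The genes whose levels over the 10 libraries were most like each member's were sought among 14688 genes with a mean of at least 1 CPM, by Pearson's r of log2(CPM + 1). The libraries share 5 groups, so high values of r are common and describe these groups only. For *Trp63* they were *Tagap1*, *Snrpert* and *Sumo2* (r of 0.9854, 0.9841 and 0.9839). *Sumo2* had 2.74 and 2.21 CPM at days 5 and 10 and 10.1, 7.29 and 5.01 CPM at day 20, in CD organoids and in adult mCD, the same split of groups as for the Y-linked genes.

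The uroplakins and basal keratins were most like genes that were highest in adult mCD. The nearest to *Upk2* were *Npy6r*, *Il5ra* and *Krt14* (r of 0.9998, 0.9998 and 0.9996), and the nearest to *Krt5* were *Gm49542*, *Slc13a2* and *Timd2* (0.9998, 0.9997 and 0.9997). The nearest to *Krt14* were *Ccm2l*, *Esm1* and *Gpihbp1* (1, 1 and 0.9999), which include genes of endothelium. The nearest to *Upk3a* were *Casr*, *Cmah* and *Acsm3* (0.9974, 0.9973 and 0.9973), and to *Upk1a* *Kdm6b*, *Meis2* and *Slc1a5* (0.9908, 0.9898 and 0.9896). Markers of proximal tubule and endothelium were high in the same 2 libraries, and their part in the uroplakin and keratin levels was not tested.

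*Sprr1a* was most like *Idnk*, *Elf5* and *D630044L22Rik* (0.9835, 0.9803 and 0.9784). *Elf5*, an epithelial Ets factor, had 5.29, 19.7 and 6.67 CPM at days 5, 10 and 20, 55.8 CPM in CD organoids and 76.1 CPM in adult mCD, with the same higher level at day 10 among the UB organoids. *Sprr2f* was most like *Oit1*, *2510039O18Rik* and *Dnase1l2* (0.9927, 0.9911 and 0.9869), and *Hrnr* like *Naip1*, *Tff2* and *Apod* (0.9941, 0.9939 and 0.9934). *Tff2*, a trefoil peptide of mucous epithelia, had 19.6 CPM in CD organoids and at most 0.0634 CPM in the mean of any other group. The stromal list, at most 40.8 CPM in UB organoids, was also high in CD organoids, with library 1 above library 2, as for *Trp63* (28.7 and 21.7 CPM) but not for *Hrnr* (28.1 and 34.6 CPM), *Sprr1a* (55.3 and 91.6 CPM) or *Sprr2f* (118 CPM in both), and the part of those cells in the levels was not tested.

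Outside this table, 8 of the 10 members, all but *Trp63* and *Hrnr*, are on the list of genes more abundant in primary UB trunk than in UB tip that accompanies the study, as are 28 of the 97 listed genes in the table and 3.43% of all genes tested. None of the 10 is on the corresponding UB tip list, and 2 of the 97 and 2.25% of all genes tested are. The list was made from other libraries, which were not analysed here.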

How the data were processed

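Libraries of mouse UB organoids, CD organoids and adult mCD were analysed from a deposited table. The counts are whole numbers per gene. The paper names a Partek Flow pipeline (read trimming, STAR alignment to mm10, and an E/M model over GENCODE genes). The submitters' processing notes name other trimming tools and edgeR, so the route to these counts is uncertain. The authors also deposited RPKM values, which divide by the summed exon records of a gene, and a signal they call TMM, the counts scaled to a common total. The length behind the RPKM was a median of 1.45 times the exon union over the genes tested. Positions and exon unions came from GENCODE M21, with 99.7% of identifiers matched.

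The 10 members, the 5 gene lists (103 genes, 97 in the table) and the marker lists were chosen with earlier results of these data known. Genes with at least 10 counts in all were tested by edgeR 4.0.16 (R 4.3.3, quasi-likelihood), with all 10 libraries in 1 fit, TMM factors of 0.792 to 1.12 and a prior count of 1. A gene was called at a Benjamini-Hochberg adjusted p of at most 0.01 and more than 4-fold. CPM use the same factors. SEs are approximate, from the test statistic. The comparisons of day 10 with day 5 and of day 20 with day 10 were added after the levels were seen. The planned per-length values were the deposited RPKM, and the exon union was added once the lengths were seen. Members carry no test: ratios are of mean CPM, with exact 95% counting intervals where few counts were present. Named genes are all members, up to 3 called genes per list, comparison and direction with the largest change, a mean of at least 5 CPM and groups that did not overlap, and the 3 genes most like each member, those of *Upk1b* not being reported here. Other listed genes are given as values. The fit was tested on simulated counts for CD organoids against day 10, recovering 198 of 200 genes changed 8-fold, with 2 false calls among 23541 genes. The changed genes were drawn from those with a mean above 1 CPM, so recovery at lower levels was not tested.

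Libraries of a group correlated at 0.9869 to 0.9968 and none was a copy of another. Alternatives were RLE factors, library totals, other filters, a prior count of 5, DESeq2 1.42.0, limma-voom (limma 3.58.1), a replicate block, fits of the 4 libraries compared, each library left out, and a looser threshold.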

Additional observations from a re-analysis of the deposited data

How the results depend on the processing

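Counts of called genes stayed within 1.5 times the reported ones under most alternatives. The looser threshold (adjusted p up to 0.05, no limit on the fold) gave, over all genes and over the listed genes, 11017 and 45 calls for day 20 against day 5 (2101 and 23 as reported), 11530 and 45 for CD organoids against day 10 (2605 and 20), 10311 and 40 against day 20 (2310 and 19), 12170 and 51 against adult mCD (3499 and 22), 7970 and 39 for day 10 against day 5 (832 and 14), and 7083 and 28 for day 20 against day 10 (828 and 9). For the other genes of the epidermal differentiation complex it gave 5 calls for day 20 against day 5 (3 as reported), 12, 9 and 12 for CD organoids against day 10, day 20 and adult mCD (7, 5 and 6), and 4 for day 20 against day 10 (2). At that threshold 48.4% of the calls for day 10 against day 5 were higher, against 68.6% as reported, and 47.7% for CD organoids against adult mCD, against 31.4%. A prior count of 5 gave 518 and 8 for day 10 against day 5 and 548 over all genes for day 20 against day 10. Fitting only the 4 libraries compared gave 539 over all genes for day 10 against day 5, and 505, 5 and, in the complex, 0 for day 20 against day 10, where limma-voom gave 1 in the complex; the cause was not tested, beyond fewer libraries in the fit.

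With single libraries left out, the counts over all genes and over the listed genes lay at 1773 to 2221 and 18 to 22 for day 20 against day 5, 2259 to 2583 and 16 to 22 for CD organoids against day 10, 1994 to 2402 and 16 to 20 against day 20, 2984 to 3652 and 20 to 25 against adult mCD, 640 to 1049 and 12 to 18 for day 10 against day 5, and 586 to 1048 and 6 to 12 for day 20 against day 10. In the complex they lay at 4 to 7 for CD organoids against day 10, 4 to 7 for day 10 against day 5 and 1 to 3 for day 20 against day 10.

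The deviations of same-numbered libraries correlated at between -0.165 and 0.079, so no strong shared deviation by replicate number was seen. With 2 libraries a group, this cannot show whether same-numbered libraries came from the same culture or animal. With a replicate block the counts over all genes and listed genes were 2072 and 22, 2583 and 20, 2284 and 19, and 3414 and 23 for the 4 comparisons of day 20 with day 5 and of CD organoids with day 10, day 20 and adult mCD, and 826 and 14 and 820 and 9 for the added ones. Days 10 and 20 had the correlation of -0.165, and a replicate block with the numbers of day 20 crossed gave 817 and 9.

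Of 29 member log2 fold changes, none of more than 4-fold changed sign. 3 small ones did with 1 library left out: *Sprr1a* for day 20 against day 5 (-0.32, up to 0.42), *Sprr1a* for CD organoids against adult mCD (0.31, down to -0.11) and *Hrnr* for day 20 against day 10 (-1.02, up to 1.17 without library 2 of day 10). Of 956 alternative values for the listed genes named, 945 kept the call and none changed sign. With 2 libraries a group, and 3 counts worth up to 0.241 CPM, levels of *Upk2*, *Krt5* and *Krt14* in organoids are limited by depth.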
